A study of Gallus gallus with 8 samples.

Results

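Integrins, the proteins that couple them to actin, and the dystrophin complex were represented by 33 genes in 8 samples of breast (pectoralis) muscle. The samples came from female Hubbard Flex broilers, a meat-type chicken, aged 6 weeks. The genes were chosen by symbol: integrin alpha and beta chains, talins, vinculin, paxillin, kindlins, parvins, ILK, zyxin, tensins, the PINCH proteins LIMS1 and LIMS2, sarcoglycans, dystroglycan, dystrophin, utrophin, syntrophins, dystrobrevins and sarcospan. The leukocyte chain ITGB2 and the integrin-binding proteins ITGB1BP1 to ITGB1BP3 were left out by the rule, a total of 4 symbols. They are 33 of 17108 genes in the count table, of which 8076 carry an entry in the annotated table that gives symbols. All 8076 of these passed the filter on low counts that left 10136 genes for testing. The 33 were drawn from these 8076, so that all 33 passed was fixed by the choice. ITGA5 and ITGA7 are not analysed here. The birds formed 2 groups of 4 by the force needed to shear the muscle, a measure of meat toughness, called high-shear and low-shear birds here, and the question was which messenger RNAs differ between tough and tender muscle. Strain, sex, age and tissue were shared by both groups, no treatment is named, and individual shear values are not used here. The labels do not say that each sample is a separate bird. Samples are called birds here because their titles number them within a group. A p-value here sets the difference between the groups against the spread between these samples, taken as independent. Nothing in the labels says more of how the 4 samples of a group were drawn, so whether they are independent is not known. Summed over 6 measured genes of skeletal muscle fibres, the level was 113747 to 138378 CPM in the high-shear and 106719 to 148571 CPM in the low-shear birds. CPM values are counts scaled by library size, with each library size corrected by its TMM factor.

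Integrins are receptors made of an alpha and a beta chain that bind collagen, laminin and other matrix proteins outside the cell. Inside the cell, talin and kindlin bind the beta tail and switch the receptor on, vinculin ties talin to actin, and ILK joins PINCH and parvin in a further bridge to actin. In a muscle fibre these proteins gather in costameres, rib-like bands at the level of the Z-disc that pass force sideways from the contractile apparatus to the matrix. The dystrophin complex is the other lateral link: dystroglycan binds laminin outside, dystrophin binds dystroglycan inside and reaches actin, the sarcoglycans and sarcospan steady it in the membrane, and syntrophins and dystrobrevin attach signalling proteins. Loss of dystrophin or of a sarcoglycan causes muscular dystrophy in humans.

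As a group the 33 genes lay evenly on both sides of 0. A level higher in high-shear than in low-shear birds was found for 16 and a lower one for 17, so 48.5% were higher, against 50.8% of all genes tested. The median log2 fold change, high over low shear force, was -0.031, against 0.0064 over all genes, and the single values ran from -1.29 for ITGA9 to 0.85 for ITGA11. By the edgeR quasi-likelihood test 0 of 33 had an adjusted p under 0.05, where the share over all genes was also 0%, and the smallest adjusted p of a member was 0.230. An unadjusted p under 0.05 was found for 5 of 33 (15.2%), against 12.8% of all genes. Of these 5, ITGA11, ILK and SGCE were higher, where 7.92% of all genes were higher at that p, and ITGA9 and VCL were lower, where 4.91% were. DESeq2 gave an adjusted p under 0.05 to 0 of 33, against 1.21% of all genes, and an unadjusted p under 0.05 to 6, against 13.2% of all genes. The groups did not overlap in 4 of 33 (12.1%), against 6.18% of all genes tested, and in each of these 4, namely ITGA11, ILK, SGCE and SGCA, the high-shear birds were the higher. Over all genes tested, 394 of the 626 without overlap were higher in the high-shear birds as well.

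**Figure D1:**
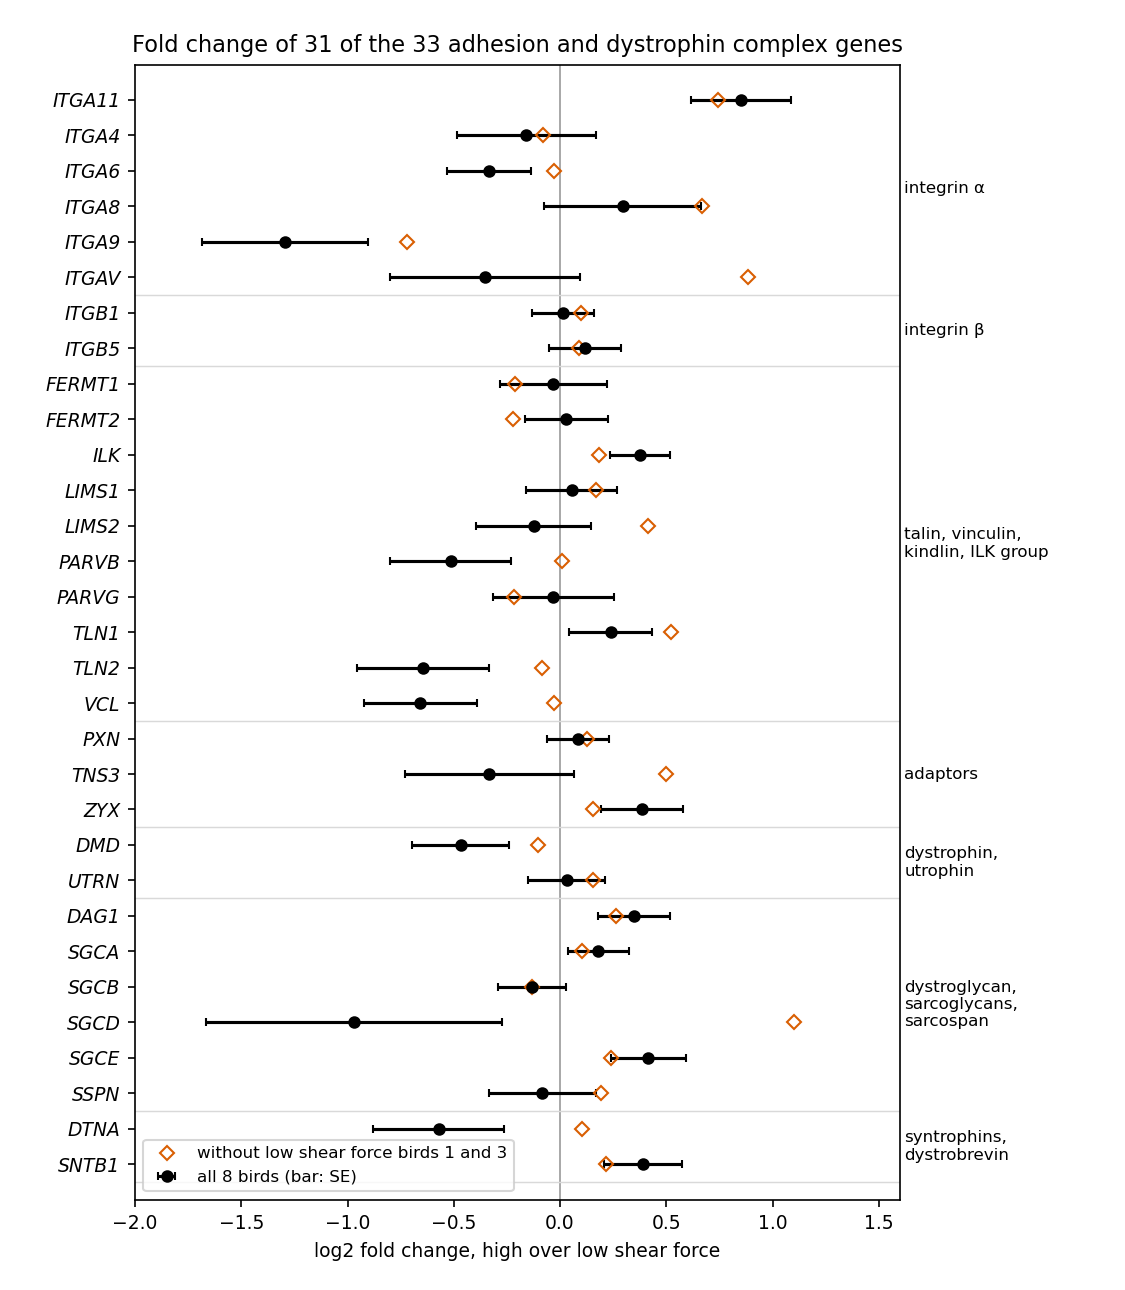
Log2 fold change, high over low shear force, of 31 of the 33 genes (filled points, with bars of 1 SE on each side) in blocks by role, and the same value with low-shear birds 1 and 3 left out (open diamonds). ITGA11 at 0.85 and ITGA9 at -1.29 are the extremes, and the open diamond of SGCD lies at 1.10 while its filled point lies at -0.97.

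Library totals were 6672776 to 7322205 expected counts in the high-shear and 5564905 to 7319140 in the low-shear birds, and the 33 genes took 0.189% to 0.285% of them. On the leading principal component over all genes (32.4% of the variance of log2 CPM), low-shear birds 1 and 3 scored 39.0 and 43.9 and the other 6 birds between -24.4 and -3.27. Because these 2 birds stand apart from the other birds of their group, values that lean on them are also given without them, and the plot of fold changes shows both. In 10 of 33 genes (30.3%) they were the 2 highest of all 8 birds, against 15.1% of all genes tested, and in 5 (15.2%) the 2 lowest, against 13.1%. These are descriptions of the same 8 libraries, with no test.

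**Figure D2:**
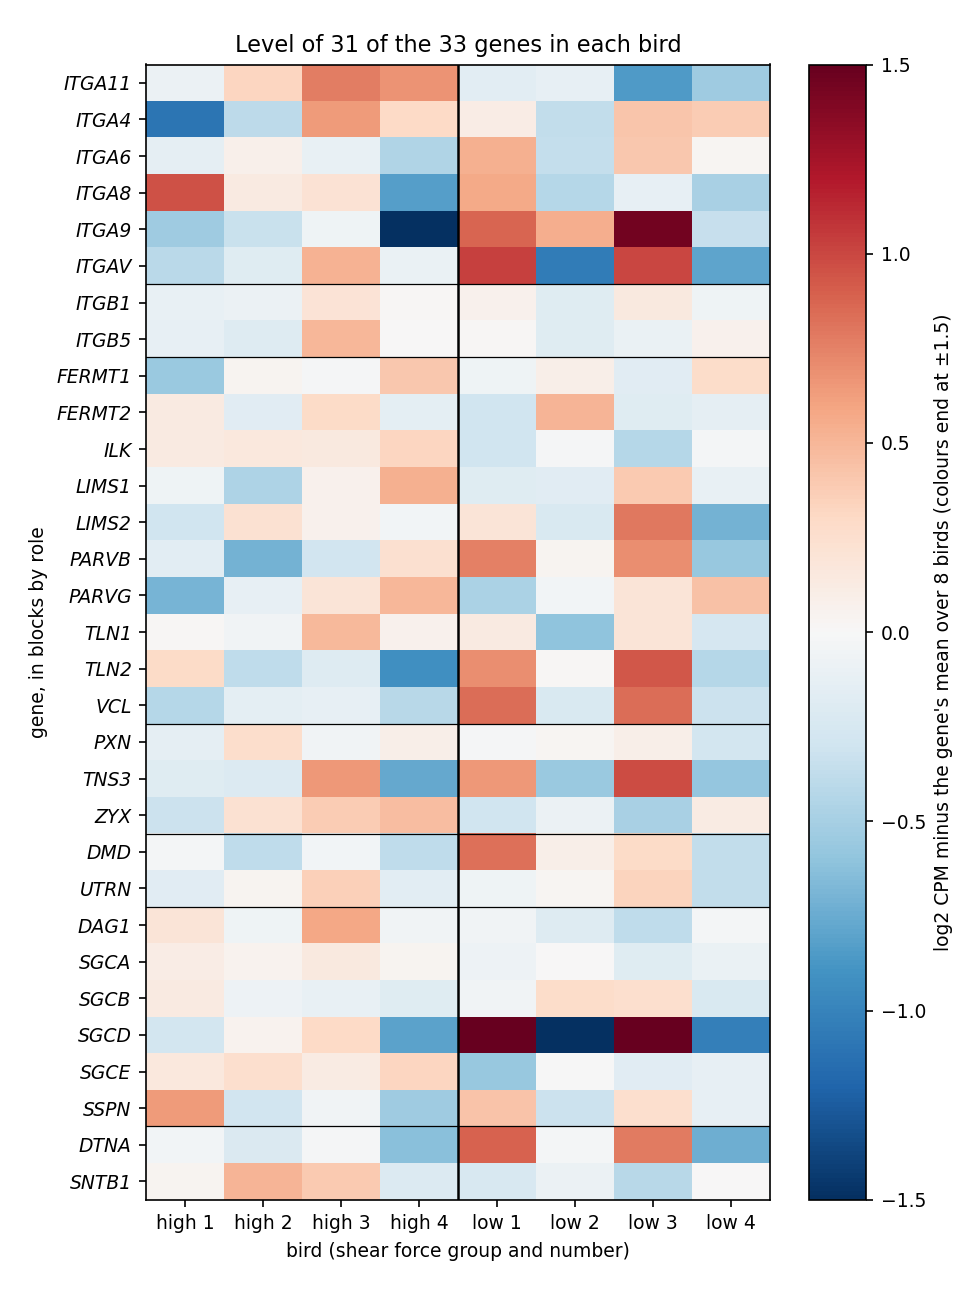
Level of 31 of the 33 genes in each bird, as log2 CPM minus the mean of that gene over all 8 birds, with high-shear birds 1 to 4 left of low-shear birds 1 to 4. Low-shear birds 1 and 3 hold the 2 highest values of 10 genes, among them DMD, TLN2, VCL, DTNA and SGCD.

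Of 6 integrin alpha chains 2 stood higher and 4 lower in high-shear muscle, and they held both extremes of the whole set. ITGA11, a collagen-binding chain that mammals express chiefly in fibroblasts, had 13.6, 17.9, 24.5 and 23.0 CPM in high-shear birds 1 to 4, against 12.9, 13.2, 7.97 and 9.91 CPM in low-shear birds 1 to 4. The 4 high-shear birds lay above all low-shear birds, though high bird 1 exceeded low bird 2 by little. The means were 19.7 ± 4.98 CPM in the high-shear and 11.0 ± 2.49 CPM in the low-shear birds (SD, n = 4). The log2 fold change was 0.85 ± 0.24 (SE, edgeR adjusted p = 0.230), and 0.74 without low-shear birds 1 and 3. ITGA11 was the one member with an unadjusted p under 0.05 in all 17 alternative settings, where its log2 fold change ran from 0.70 to 0.99. Its gene model (chromosome 10, 18646162 to 18665906, coordinates as in the authors' deposited table) overlaps that of FEM1B, so that reads of the shared stretch may be divided between them. The expected counts of ITGA11 were not whole numbers in any of the 8 birds. FEM1B stood at -0.28 ± 0.16 (SE, edgeR adjusted p = 0.454). Of 8 fibroblast markers listed 7 were measured, and all 7 were higher in the high-shear birds, also without low-shear birds 1 and 3 (median 0.53). Their summed level was 3059 to 4129 CPM there and 2175 to 2915 CPM in the low-shear birds, without overlap. COL1A2, COL3A1 and POSTN made up most of each sum. Taken singly, LUM, DCN and COL3A1 overlapped between the groups and 4 of the 7 (57.1%) did not, against 6.18% of all genes without overlap. The part of fibroblasts in the ITGA11 value was not tested, and in whole muscle more cells of a type and more RNA per cell cannot be told apart.

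ITGA9, a chain whose receptor binds tenascin C and osteopontin in mammals, had the most negative log2 fold change of the 33. It had 3.99, 4.59, 5.52 and 1.90 CPM in high-shear birds 1 to 4, against 10.6, 8.42, 15.7 and 4.54 CPM in low-shear birds 1 to 4, from as few as 13 counts in a library. High bird 4 was the lowest and low bird 3 the highest, and only low bird 4 fell within the range of the high-shear birds. On average it stood at 4.00 ± 1.53 CPM in the high-shear and 9.81 ± 4.65 CPM in the low-shear birds (SD, n = 4). The log2 fold change was -1.29 ± 0.39 (SE, edgeR adjusted p = 0.258), which corresponds to a level 2.45-fold higher in the low-shear birds, and it was -0.72 without low-shear birds 1 and 3. DESeq2 gave ITGA9 the smallest adjusted p of the 33, 0.0816, within a range of 0.0816 to 0.705 over the alternative settings. TNC, which encodes tenascin C, had 31.5, 32.0, 40.0 and 43.8 CPM in the high-shear birds. In the low-shear birds it had 71.3, 37.2, 59.9 and 67.7 CPM, and low bird 2 alone of them lay within the high range. The log2 fold change of TNC was -0.68 ± 0.21 (SE, edgeR adjusted p = 0.258), and -0.54 without low-shear birds 1 and 3. SPP1, which encodes osteopontin, had 2.71 to 90.9 CPM in the high-shear and 13.5 to 163 CPM in the low-shear birds. It stood at -1.09 ± 1.03 (SE, edgeR adjusted p = 0.675), and at -0.21 without low-shear birds 1 and 3.

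ITGAV, the alpha chain of receptors that recognise the RGD motif in vitronectin and fibronectin, had 8.78, 10.3, 16.7 and 10.8 CPM in high-shear birds 1 to 4, against 23.7, 5.62, 23.3 and 6.72 CPM in low-shear birds 1 to 4. The low group was split, with birds 1 and 3 above and birds 2 and 4 below every high-shear bird. Its log2 fold change was -0.35 ± 0.45 (SE, edgeR adjusted p = 0.759) with all birds and 0.88 without low-shear birds 1 and 3, so that the direction turned. The laminin receptor chain ITGA6 showed a milder form of this split, with 33.7 to 48.5 CPM in the high-shear birds and 60.6 and 66.5 CPM in low birds 3 and 1, at -0.34 ± 0.20 (SE) on the log2 scale and -0.026 without them. ITGA4, whose receptor serves leukocyte adhesion, stood at -0.16 ± 0.33 (SE), and ITGA8, a chain found on smooth muscle and other contractile cells in mammals, at 0.30 ± 0.37 (SE); the smallest counts in a library were 41 for ITGA4 and 20 for ITGA8. Neither passed, and both turned direction when 1 bird was left out.

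The 2 beta chains had log2 fold changes near 0. ITGB1, the partner of most alpha chains and the main beta chain of muscle, had 314, 319.8, 393 and 344 CPM in high-shear birds 1 to 4, against 355, 300.3, 376 and 325 CPM in low-shear birds 1 to 4. The 2 ranges overlapped over most of their width, and the log2 fold change was 0.014 ± 0.15 (SE, edgeR adjusted p = 0.981), the closest to 0 of the 33. ITGB5, which pairs with ITGAV, had 43.0 to 69.6 CPM in the high-shear and 43.5 to 51.6 CPM in the low-shear birds and stood at 0.12 ± 0.17 (SE). High bird 3 was the one bird above the rest.

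Of the proteins that couple integrins to actin, the 2 talins differed in sign. TLN1, the talin of most cell types, had 48.4, 46.2, 67.1 and 50.1 CPM in high-shear birds 1 to 4, against 52.7, 31.6, 54.8 and 40.3 CPM in low-shear birds 1 to 4. The groups overlapped, with high bird 3 the highest and low bird 2 the lowest, and the log2 fold change was 0.24 ± 0.20 (SE, edgeR adjusted p = 0.622); without low-shear birds 1 and 3 it was 0.52. TLN2, the talin enriched in striated muscle of mammals, had 83.2, 52.7, 59.6 and 36.0 CPM in high-shear birds 1 to 4, against 111, 69.1, 130.0 and 50.7 CPM in low-shear birds 1 to 4. Here low birds 3 and 1 were the highest and high bird 4 the lowest, giving -0.64 ± 0.31 (SE, edgeR adjusted p = 0.408) with all birds but -0.084 without low-shear birds 1 and 3.

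VCL, vinculin, had 38.8, 46.9, 47.9 and 38.8 CPM in high-shear birds 1 to 4, against 92.7, 44.2, 93.1 and 41.5 CPM in low-shear birds 1 to 4. Low birds 1 and 3 stood at about the same level, far above the other 6 birds, which all lay between 38.8 and 47.9 CPM. Group means were 43.1 ± 4.97 CPM in the high-shear and 67.9 ± 28.9 CPM in the low-shear birds (SD, n = 4). The log2 fold change of -0.66 ± 0.27 (SE, edgeR adjusted p = 0.354) was accordingly -0.027 without low-shear birds 1 and 3, and VCL's unadjusted p of 0.0303 rests on them. ILK, the scaffold at the centre of the ILK-PINCH-parvin complex, had 72.0, 73.5, 72.9 and 82.2 CPM in high-shear birds 1 to 4, against 53.2, 65.1, 48.9 and 64.4 CPM in low-shear birds 1 to 4. Every high-shear bird lay above every low one, and high birds 1 to 3 were close together, with means of 75.2 ± 4.74 CPM in the high-shear and 57.9 ± 8.12 CPM in the low-shear birds (SD, n = 4). Its log2 fold change was 0.38 ± 0.14 (SE, edgeR adjusted p = 0.340). Low birds 3 and 1 were the lowest, and without them the log2 fold change of ILK was 0.18. The expected counts of ILK were not whole numbers in any of the 8 birds, so some of its reads may have been divided with other sequence. That was not tested. Counts of ITGA11 and LIMS1 were also not whole in any of the 8 birds, and those of ITGA4 were not whole in 6.

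With all birds the partners of ILK had smaller or opposite log2 fold changes. Without low-shear birds 1 and 3 this did not hold for LIMS2, at 0.41 beside 0.18 for ILK, and LIMS1 was at 0.17. The PINCH genes LIMS1 and LIMS2 stood at 0.055 ± 0.21 (SE) and -0.12 ± 0.27 (SE), and PARVB, the parvin of striated muscle and heart in mammals, at -0.51 ± 0.29 (SE, edgeR adjusted p = 0.457). PARVB had 129.7 and 124 CPM in low-shear birds 1 and 3, above the 47.0 to 90.7 CPM of the high-shear birds, and its log2 fold change was 0.0099 without those 2 birds. PARVG, a leukocyte parvin in mammals whose gene lies 1.747 kb from PARVB on chromosome 1, stood at -0.031 ± 0.28 (SE). The kindlins FERMT1 and FERMT2, of which the second is the one of muscle in mammals, stood at -0.031 ± 0.25 (SE) and 0.030 ± 0.20 (SE). Among the other adaptors zyxin (ZYX), which follows tension on actin, stood at 0.39 ± 0.19 (SE), paxillin (PXN) at 0.084 ± 0.14 (SE) and the tensin TNS3 at -0.33 ± 0.40 (SE), and none of the 3 passed. Without low-shear birds 1 and 3 ZYX was at 0.16 and TNS3 at 0.50.

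**Figure D3:**
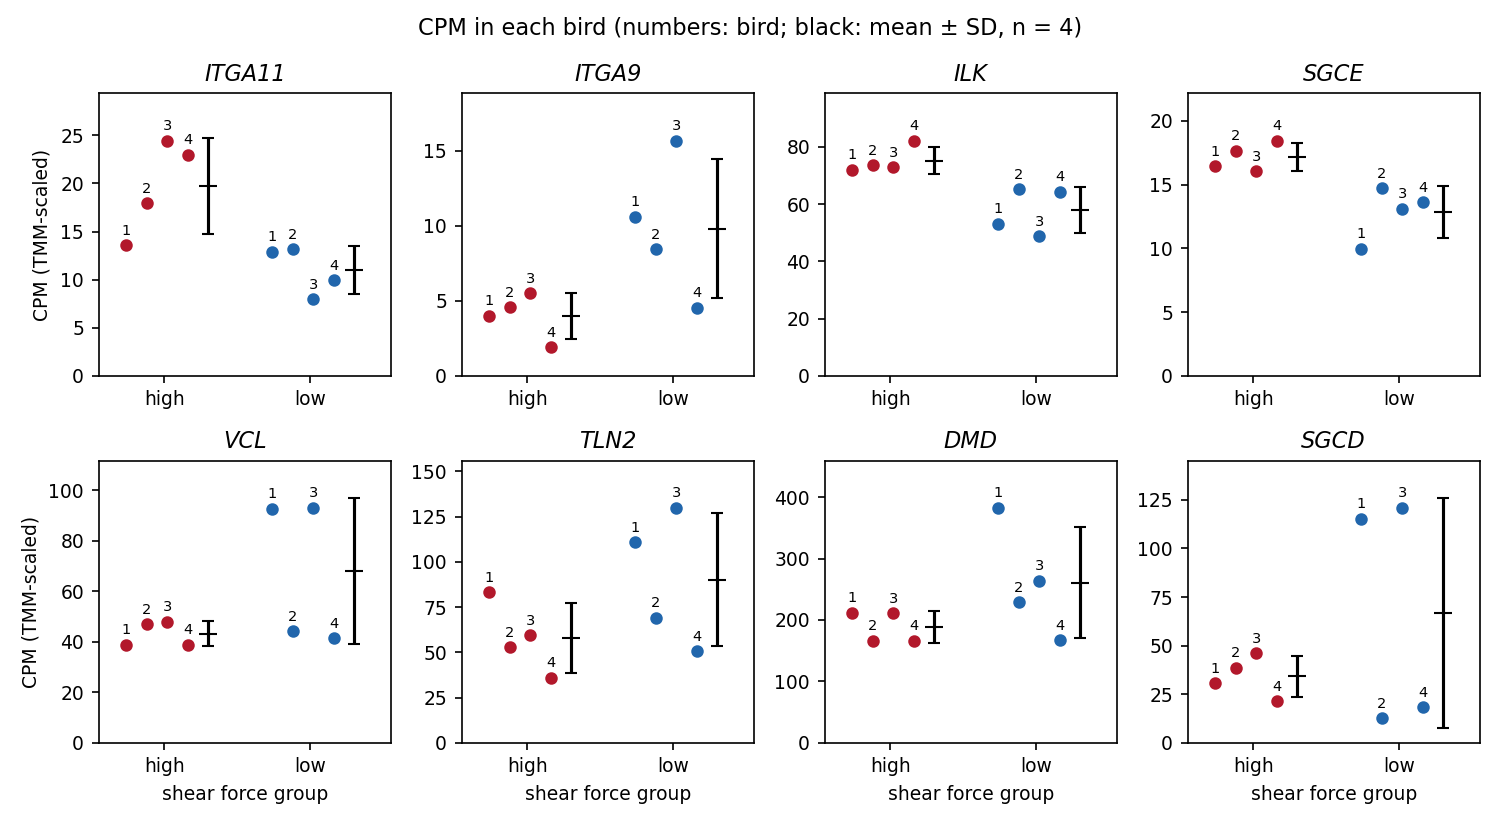
TMM-scaled CPM of 8 of the genes in each bird, high shear force left of low shear force, with points numbered by bird and a dash with bars for the group mean ± 1 SD (n = 4). In ITGA11, ILK and SGCE the groups do not overlap, while in VCL, TLN2, DMD and SGCD low birds 1 and 3 lie above the other low-shear birds.

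Dystrophin was lower in the high-shear birds on average, but not past the test. DMD had 212, 166, 211 and 166 CPM in high-shear birds 1 to 4, against 383, 229, 264 and 167 CPM in low-shear birds 1 to 4. Low bird 1 stood highest and low bird 4 at the level of high birds 2 and 4. The log2 fold change was -0.47 ± 0.23 (SE, edgeR adjusted p = 0.409), -0.25 without low bird 1, -0.64 without low bird 4 and -0.10 without low-shear birds 1 and 3. DMD (chromosome 1, 114233667 to 114932830) has the longest span of all genes with coordinates, 699 kb. Utrophin, the autosomal relative of dystrophin in mammals that lies mostly at nerve and tendon junctions, had 31.6, 36.8, 45.9 and 31.9 CPM in high-shear birds 1 to 4, against 34.1, 36.3, 44.9 and 27.7 CPM in low-shear birds 1 to 4. The ranges overlapped over most of their width, at 0.032 ± 0.18 (SE, edgeR adjusted p = 0.956).

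Among dystroglycan and the sarcoglycans, SGCE and DAG1 stood higher in the high-shear birds, SGCA and SGCB lay closer to 0, and SGCD followed low-shear birds 1 and 3; none passed the test over all genes. DAG1, whose product is cut into alpha- and beta-dystroglycan, had 93.1, 78.1, 122 and 78.7 CPM in high-shear birds 1 to 4, against 78.5, 71.1, 62.6 and 80.0 CPM in low-shear birds 1 to 4. High birds 3 and 1 were above every low-shear bird, high birds 2 and 4 were within the low range, and the log2 fold change was 0.35 ± 0.17 (SE, edgeR adjusted p = 0.410). SGCA, the muscle-specific alpha-sarcoglycan, had 20.9, 20.02, 21.4 and 19.9 CPM in high-shear birds 1 to 4, against 18.3, 19.5, 17.0 and 18.0 CPM in low-shear birds 1 to 4. The groups did not overlap, yet the gap between high bird 4 and low bird 2 was small and the log2 fold change was 0.18 ± 0.14 (SE, edgeR adjusted p = 0.612). The gene model of SGCA spans only 1.46 kb and starts at base 21 of a stretch of sequence not placed on a chromosome. It lies among the 808 shortest genes, whose median log2 fold change was 0.23. SGCB had 391, 338, 329.9 and 315 CPM in high-shear birds 1 to 4, against 343, 432, 427 and 305 CPM in low-shear birds 1 to 4, with the low group spread over a wider range than the high one. It stood at -0.13 ± 0.16 (SE, edgeR adjusted p = 0.750).

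SGCD, delta-sarcoglycan, had 30.8, 38.6, 46.0 and 21.4 CPM in high-shear birds 1 to 4, against 115, 12.8, 121 and 18.3 CPM in low-shear birds 1 to 4. Low birds 1 and 3 were far above any other bird and low birds 2 and 4 were below every high-shear bird. Its log2 fold change of -0.97 ± 0.70 (SE, edgeR adjusted p = 0.578) turned to 1.10 without low-shear birds 1 and 3. SGCE, a relative of SGCA expressed in many tissues of mammals, had 16.4, 17.7, 16.1 and 18.5 CPM in high-shear birds 1 to 4, against 9.99, 14.7, 13.1 and 13.6 CPM in low-shear birds 1 to 4. All high-shear birds were above all low ones, with means of 17.2 ± 1.11 CPM in the high-shear and 12.9 ± 2.03 CPM in the low-shear birds (SD, n = 4). It stood at 0.42 ± 0.18 (SE, edgeR adjusted p = 0.357), and at 0.24 without low-shear birds 1 and 3. Sarcospan (SSPN) stood at -0.083 ± 0.25 (SE), with 78.4 to 176.6 CPM in the high-shear and 91.3 to 153 CPM in the low-shear birds.

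On the inner face of the complex, DTNA, alpha-dystrobrevin, had 53.2, 46.9, 54.1 and 35.5 CPM in high-shear birds 1 to 4, against 101, 53.3, 94.0 and 32.8 CPM in low-shear birds 1 to 4. Low birds 1 and 3 were the highest and low bird 4 the lowest. Its log2 fold change of -0.57 ± 0.31 (SE, edgeR adjusted p = 0.451) was 0.10 without low-shear birds 1 and 3. SNTB1, beta-1-syntrophin, stood at 0.39 ± 0.18 (SE, edgeR adjusted p = 0.397), and at 0.22 without low-shear birds 1 and 3.

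The 10 genes whose 2 highest birds were low-shear birds 1 and 3 were DMD, DTNA, ITGA6, ITGA9, ITGAV, PARVB, SGCD, TLN2, TNS3 and VCL. Ranked by the genomic span from start to end in the authors' deposited table, 10 of the 33 lay among the 808 longest of 8076 genes, which reached from 71.2 to 699 kb. In 6 of those 10 low-shear birds 1 and 3 were the 2 highest birds, against 28.1% of those 808 genes. The 10 long genes had a median log2 fold change of -0.42 with 3 higher, against -0.12 for the 808, and the other 23 a median of 0.030. Across all genes the median ran from 0.23 in the 808 shortest genes to -0.12 in the 808 longest. Spearman's rho of log2 fold change with span was -0.32 across 8076 genes and -0.50 across the 33, genes of the same 8 libraries that are not independent replicates. Without low-shear birds 1 and 3 the values were 0.018 and 0.070.

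**Figure D4:**
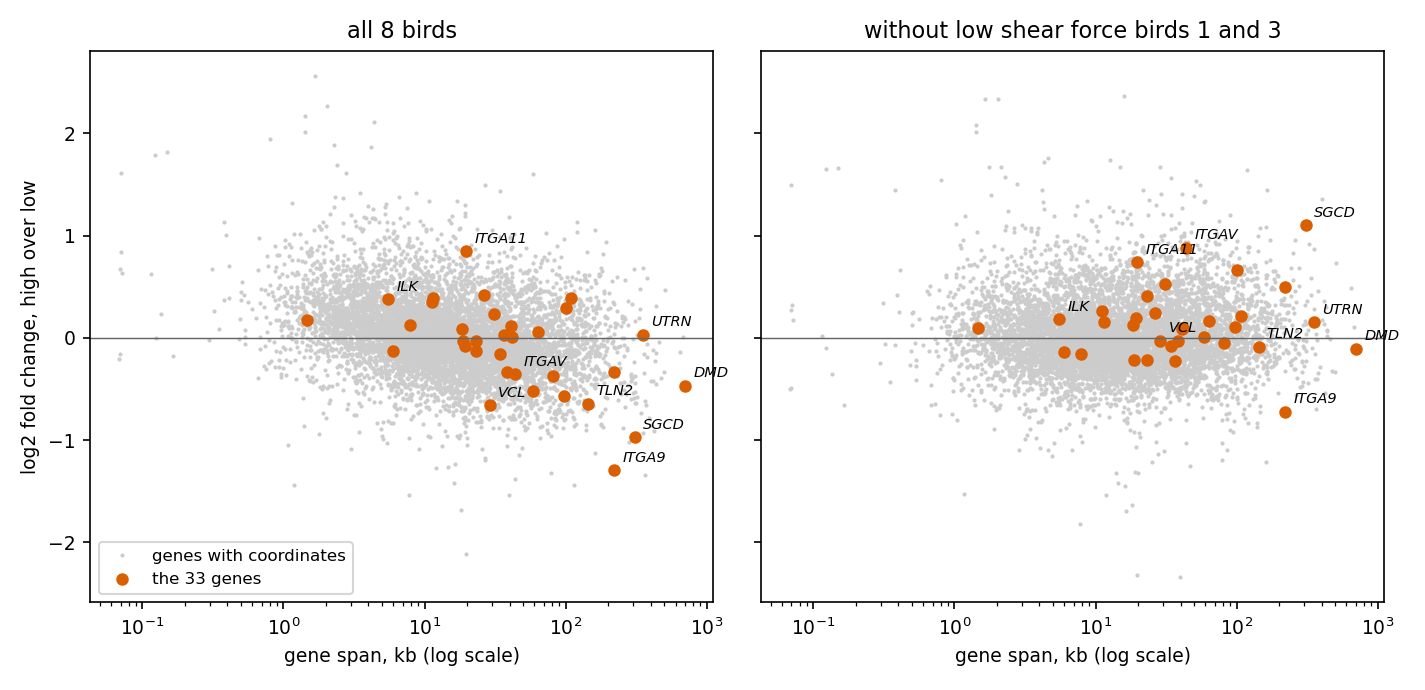
Log2 fold change, high over low shear force, against genomic span (kb, log axis), with all 8 birds in one panel and without low-shear birds 1 and 3 in the other; small points are all genes with coordinates and large points the 33 genes. The 33 genes slope downward with span in the first panel (rho -0.50) and show no slope in the second (rho 0.070).

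The depth taken by long genes differed between birds in the same way. The 808 longest genes summed to 48000, 42228, 42513 and 36728 CPM in high-shear birds 1 to 4, against 58005, 45930, 59832 and 38793 CPM in low-shear birds 1 to 4. Low birds 3 and 1 were thus above all others, and low birds 2 and 4 were within the range of the high group. The part of gene span in the members' values was not tested. Without low-shear birds 1 and 3 the comparison set 4 high-shear against 2 low-shear birds. An unadjusted p under 0.05 was then found for 4 of the 33, against 7.51% of all genes then tested. These were ITGA11, ITGAV, SGCD and TLN1, all higher in the high-shear birds. In ITGAV, SGCD and TLN1 the birds left out were the 2 highest of the low-shear group, which by itself raises the log2 fold change. ITGA11 was the single member found at that p both with and without low-shear birds 1 and 3. The median of the 33 was then 0.10, against 0.011 over all genes, with 21 of 33 higher, against 51.3% of all genes, and 0 had an adjusted p under 0.05 by edgeR. Among members whose value is not given above without the 2 birds and that moved by over 1.5 times, SGCA was at 0.10, SSPN at 0.19 and UTRN at 0.16. Of the integrin chains, ITGA4 was at -0.078, ITGA8 at 0.67 and ITGB1 at 0.10. The adaptor PARVG was at -0.22, FERMT1 at -0.21, FERMT2 at -0.22 and PXN at 0.13.

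The matrix ligands of these receptors, a list of collagens, laminins and other proteins chosen with earlier results of these data known, were mostly higher in the high-shear birds. Of 23 gene models measured 20 were higher; their median log2 fold change was 0.42, against 0.0064 over all genes. By edgeR 0 had an adjusted p under 0.05 and 9 (39.1%) had an unadjusted p under 0.05, against 12.8% of all genes, of which TNC was lower and 8 were higher. By smallest p these began with COL6A1 and COL6A2 of collagen VI, the network around muscle fibres: COL6A1 stood at 0.63 ± 0.17 (SE), with a DESeq2 adjusted p of 0.0279, and COL6A2 at 0.57 ± 0.17 (SE). COL1A2 of the main fibrillar collagen stood at 0.58 ± 0.19 (SE), the laminin chain LAMB1 at 0.52 ± 0.18 (SE) and the basement membrane protein NID2 at 0.65 ± 0.23 (SE). Without low-shear birds 1 and 3 COL1A2 was at 0.35, LAMB1 at 0.26 and NID2 at 0.31. COL1A2 and COL3A1 also stand among the fibroblast markers. Without low-shear birds 1 and 3 20 of 23 were higher as well, with a median of 0.35.

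Other partners of adhesions and costameres were divided in direction. Of 29 measured 12 stood above and 17 below 0, the median being -0.070. Without low-shear birds 1 and 3 this lean turned, with 15 of the 29 higher and a median of 0.11. With all birds 0 passed by edgeR and 2 (6.90%) had an unadjusted p under 0.05, against 12.8% of all genes. ACTN4, an alpha-actinin found mainly outside the sarcomere, had 19.2, 18.8, 28.9 and 23.0 CPM in the high-shear birds against 11.2, 7.72, 13.5 and 16.0 CPM in the low-shear birds, without overlap and at 0.89 ± 0.24 (SE, edgeR adjusted p = 0.212). CSRP1, a LIM protein that binds zyxin and alpha-actinin and is abundant in smooth muscle, had 12.6, 13.1, 20.4 and 19.3 CPM in the high-shear birds against 3.84, 8.95, 5.40 and 11.8 CPM in the low-shear birds, at 1.14 ± 0.32 (SE, edgeR adjusted p = 0.235) and 0.63 without low-shear birds 1 and 3; all high-shear birds again lay above all low ones. Summed markers of smooth muscle and pericytes, all 6 of them higher, were 213 to 388 CPM in the high-shear and 133 to 194 CPM in the low-shear birds. RGS5 made up most of each sum, with 135 to 294 CPM in the high-shear and 83.4 to 145 CPM in the low-shear birds. The part of smooth muscle and pericytes in the values of ACTN4 and CSRP1 was not tested. Of 11 genes that add the laminin-binding sugars to dystroglycan or supply mannose for them, 6 stood above and 5 below 0, the median being 0.0095. By edgeR 0 of the 11 passed and 2 (18.2%) had an unadjusted p under 0.05, against 12.8% of all genes. These 2 were GMPPB and GMPPA, which make or control the supply of GDP-mannose, at 0.63 ± 0.23 (SE) and 0.36 ± 0.15 (SE). GMPPB was at 0.36 without low-shear birds 1 and 3.

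Markers of other cell types did not all go one way. All 10 endothelial markers measured were higher, with sums of 285 to 542 CPM in the high-shear and 235 to 408 CPM in the low-shear birds, which overlapped. Their median log2 fold change was 0.61 with all birds. It was 0.30 without low-shear birds 1 and 3, where all 10 were still higher. Of 6 leukocyte markers 2 were higher, with sums of 685 to 1617 CPM in the high-shear and 749.7 to 1231 CPM in the low-shear birds. CD74, at 0.47 on the log2 scale, made up most of these sums, with 581 CPM in high bird 1 and 1392 CPM in high bird 3. CSF1R stood at 0.11, and the 4 lower markers PTPRC, SPI1, LCP1 and CD3E at -0.64, -0.56, -0.22 and -0.16. Leaving out low-shear birds 1 and 3 put CD74 at 0.26 and CSF1R at 0.66. PTPRC, SPI1, LCP1 and CD3E were then at -0.25, -0.48, -0.19 and -0.083. Of 2 thrombocyte markers measured, F13A1 stood at 0.65 ± 0.24 (SE) and TUBB1 at -0.21 ± 0.23 (SE). All 3 erythrocyte genes were higher, with sums of 157 to 610.3 CPM in the high-shear and 56.1 to 92.7 CPM in the low-shear birds. The 610.3 CPM was that of high bird 2, and high birds 1, 3 and 4 lay between 157 and 178 CPM. The part of these cells in the values of the 33 genes was not tested.

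Each of the 33 genes had 1 named transcript in the transcript table, with the same counts as its gene within 0.01%, so isoforms of DMD or of the integrins were not resolved. Of 10362 transcripts tested 0 had an adjusted p under 0.05 by the edgeR quasi-likelihood test, and the same 5 members had an unadjusted p under 0.05. In the authors' deposited table, whose fold changes run low over high and were turned here, 0 of the 33 had an adjusted p under 0.05 by edgeR or by DESeq2. The smallest in the authors' deposited table were 0.0663 for ITGA9 by edgeR and 0.0590 for ITGA11 by DESeq2.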

How the data were processed

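The authors deposited expected counts, estimates of reads of which 8.22% were not whole numbers, per gene and per transcript, with 1 column per bird. Per the labels, muscle in RNAlater was extracted with Trizol, libraries were made with a TruSeq kit, and each was sequenced in 2 technical repetitions; the sources used here do not say how they were combined. The submitters' processing notes give the build galGal4 and the tools RSEM, TopHat, Bowtie2, FastQC, Cuffdiff, DESeq2 and edgeR, without versions or roles. Strand settings are not given, so overlapping genes may share reads. Per the file headers, the authors' deposited table holds log2 fold changes, p-values and adjusted p-values from edgeR and DESeq2, and gene symbols and coordinates.

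Counts were rounded, filtered with filterByExpr of edgeR 4.0.16 (99.8% of counts kept), scaled by TMM and tested with the robust edgeR quasi-likelihood test (intercept and group, 2-sided, Benjamini-Hochberg over 10136 genes, threshold 0.05) in R 4.3.3. Alternatives were RLE and upper-quartile scaling, 2 other filters, the replicate number as a block, DESeq2 1.42.0, voom of limma 3.58.1, the edgeR likelihood-ratio test, each bird left out, and low-shear birds 1 and 3 left out. No replicate pairing was used. No 2 libraries of a group agreed within counting noise. The spread between birds (common biological coefficient of variation) was 24.8%. Each SE of a log2 fold change was derived from the edgeR test, as the absolute log2 fold change over the square root of its F statistic.

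The members and all lists were chosen with earlier results of these data known. Values in every bird are given for genes with an unadjusted p under 0.05 and for a core set; other members are given by level or fold change, and from each list genes with an unadjusted p under 0.05, at most 6 by smallest p. SPP1 is given as well, because its product is named as a ligand of the ITGA9 receptor. For 2 of the 33 genes single values are not reported here; they are included in all counts and medians over the 33. Sequences are not used here.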

Additional observations from a re-analysis of the deposited data

Results flagged for a closer look

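In 3 of 62 groups of 4 birds (31 genes, each in both groups) the highest or lowest bird stood apart from the other 3 by Dixon's criterion. For either end, chance gives about 1 in 20, or 3.1 groups. In all 3 it was the highest bird. ILK had 82.2 CPM in high-shear bird 4, and the next bird of that group had 73.5 CPM. LIMS1 had 93.0 CPM in low-shear bird 3, with 65.5 CPM in the next bird of the group. FERMT2 had 71.2 CPM in low-shear bird 2, with 45.4 CPM in the next.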

How the results depend on the processing

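In all 17 alternative settings 0 of the 33 genes had an adjusted p below 0.05, with 0.0702 as the smallest. Of 31 genes the direction of 15 held in every one, ITGA11, ITGA9, ILK, SGCE, SGCA, VCL, DMD and TLN2 among them. For VCL, TLN2 and DMD little more than the sign held, at -0.027, -0.084 and -0.10 without low-shear birds 1 and 3. The number with an unadjusted p under 0.05 was 5 in the main test, 9 with the replicate block and 2 to 10 with 1 bird left out: 2 without low-shear bird 1 or 3, 9 without low-shear bird 2 and 10 without low-shear bird 4. The share of all genes at that p moved too, from 12.8% in the main test to 14.9% with the block, 7.75% and 7.997% without low-shear bird 1 or 3, 15.2% without low-shear bird 2 and 18.6% without low-shear bird 4. Whether the replicate numbers pair the birds is not known. Correlations of deviations between birds of the same number were -0.0032 to 0.32, and 1 of 4 numbers matched best with itself. With 4 numbers and no test, these values cannot decide it. Over all genes 0 had an adjusted p under 0.05 in the main test, 123 by DESeq2, 135 by the edgeR likelihood-ratio test, 7 without a filter and 1 with the replicate block. RLE and upper-quartile scaling moved the median of all genes by -0.026 and 0.019. Of the 33 genes 4 had no overlap between the groups in the main test. That count was 3 with RLE scaling, without a filter, with a 1 CPM filter and by DESeq2. It stayed at 4 with upper-quartile scaling, the replicate block, voom and the likelihood-ratio test. ITGB1 turned to -0.013 with RLE scaling, -0.0022 with a 1 CPM filter and -0.013 with DESeq2. Without low-shear birds 1 and 3, DTNA was 0.10, PARVB 0.0099, SGCD 1.10, TNS3 0.50, ITGAV 0.88, LIMS2 0.41, SSPN 0.19 and FERMT2 -0.22, each turned in direction; the cause was not tested. With 1 bird left out, log2 fold changes that crossed 0 ran as follows: ITGA8 -0.034 to 0.56, ITGA4 -0.46 to 0.074, PARVG -0.22 to 0.14, FERMT1 -0.19 to 0.11, FERMT2 -0.089 to 0.22, SSPN -0.37 to 0.061, ITGB5 -0.066 to 0.20, ITGB1 -0.068 to 0.052, UTRN -0.10 to 0.14, LIMS1 -0.15 to 0.20 and LIMS2 -0.33 to 0.18. ITGA9, from 13 counts upward, and ITGA8, from 20, had the smallest counts of the 33 and so the largest relative counting error.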

Other observations

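The balance within pairs of related genes, chosen after their values were seen, gives a view that is free of library scaling. Because transcript lengths were not used, only the difference of a ratio between birds can be read. The log2 ratio of TLN1 to TLN2 was -0.78, -0.19, 0.17 and 0.48 in high-shear birds 1 to 4, against -1.07, -1.13, -1.25 and -0.33 in low-shear birds 1 to 4. The ratio was highest in high bird 4, and low bird 4 was the one low-shear bird inside the high range, with means of -0.082 ± 0.54 in the high-shear and -0.95 ± 0.42 in the low-shear birds (SD, n = 4), and a low-shear mean of -0.73 over birds 2 and 4. The log2 ratio of UTRN to DMD was -2.74, -2.17, -2.20 and -2.38 in the high-shear birds and -3.49, -2.66, -2.56 and -2.59 in the low-shear birds, lowest in low bird 1, with means of -2.37 in the high-shear and -2.82 in the low-shear birds, and -2.62 over low birds 2 and 4. For FERMT1 to FERMT2 the means were -3.09 in the high-shear and -2.97 in the low-shear birds, and -3.04 over low birds 2 and 4. For LIMS1 to LIMS2 they were 0.79 in the high-shear and 0.73 in the low-shear birds, but 1.09 over low birds 2 and 4, above the high-shear mean. For PARVG to PARVB they were -3.01 in the high-shear and -3.41 in the low-shear birds, and -2.75 over low birds 2 and 4. None of these ratios was tested.

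The spread between birds was wider in the low-shear group in 20 of 33 genes (60.6%), close to the 61.4% of all genes tested.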
